A study of Mus musculus with 10 samples.

Results

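The Slc22 genes encode carriers that move organic anions, organic cations and urate across cell membranes, and 9 of them were followed here in RNA from mouse kidney: Slc22a6, Slc22a8, Slc22a7, Slc22a19, Slc22a12, Slc22a13, Slc22a28, Slc22a30 and Slc22a2. They were listed by name, with no threshold on a measured value but with earlier results of these data known. They are 9 of the 46517 genes counted, and all 9 are among the 17823 genes that passed the filter on low counts. Another 16 genes carry Slc22 symbols, and 14 of those passed it.

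Poly(A) RNA of whole kidney was sequenced in 10 libraries of a study of human APOL1, placed by the series title in mouse podocytes, the epithelial cells of the glomerular filter. Carriers of the G1 or G2 allele are known to have a raised risk of kidney disease. By genotype label there are 3 Control libraries, 3 of wild type (single mutant), 2 of G1-APOL1 and 2 of G2-APOL1, the last pair of groups called G1 and G2 below. The labels do not say what single mutant stands for, which promoter drives APOL1, whether Control kidneys carry any transgene, or the strain, sex, age and treatment of the mice. Nor do they tie each library to a mouse of its own, and p-values then cover only the spread among the libraries, which may be technical. APOL1 itself was not analysed here, and genotype was taken from the labels alone.

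In the kidney most of these carriers sit in the proximal tubule, the segment that reabsorbs most of the filtrate and secretes drugs, toxins and waste. The organic anion transporters OAT1 (Slc22a6) and OAT3 (Slc22a8) lie in the basolateral membrane, on the blood side, and take anions up from blood in exchange for dicarboxylates, which the sodium-coupled carrier Slc13a3 returns to the cell. URAT1 (Slc22a12) lies in the apical membrane, on the urine side, and reabsorbs urate, while the cation carrier OCT2 (Slc22a2) takes up cations such as creatinine on the blood side. Several members of the family are known to differ between male and female rodent kidneys.

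Library totals ran from 27596391 to 34815153 counts, and a floor of 3 counts corresponded to 0.0747 to 0.119 CPM. CPM here is counts per 1000000 on library sizes scaled by TMM, a method that assumes most genes do not change. Counts carried no molecular identifiers, so floors cover counting error only. G1 replicate 2 stood apart from the other 9 libraries in sex chromosome transcripts, which the labels do not mention. It held 360 CPM of Xist, the RNA of the inactive X chromosome, against 0.195 to 1.13 CPM in the others, and 0.202 CPM of the Y-linked gene Ddx3y against 36.1 to 51.7 CPM. Calls of the 9 genes in G1 against Control and between G2 and G1 are therefore also given without it. Most other results that rest on G1 include it, among them those of the marker lists and the correlations. The tissue labels were checked against markers: the proximal tubule receptor gene Lrp2 stood at 1693 to 2175 CPM in the 6 libraries labelled Control or wild type (single mutant), called below the libraries without a risk allele label, and at 531 to 856 CPM in the 4 labelled G1 or G2, and the podocyte gene Nphs1 at 4.46 to 32.3 CPM over all 10. Several liver transcripts were high in wild type (single mutant) replicate 1, among them Alb at 199 CPM against 0.551 to 22.1 CPM elsewhere. Fga, also on the liver list, was not, at 24.57 CPM there against 357.4 and 243.3 CPM in G1. The liver list summed to 290.6 CPM in that wild type (single mutant) library and to 360 and 246.2 CPM in G1.

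The 9 genes spanned a wide range of levels. Per kilobase of exon, and over the 3 Control kidneys, Slc22a12 was highest among them with 491 ± 67.1 CPM per kilobase (SD, n = 3), followed by Slc22a6 (325 ± 92.7), Slc22a8 (234 ± 78.7), Slc22a2 (164 ± 14.6), Slc22a7 (85.6 ± 99), Slc22a30 (44.7 ± 14), Slc22a28 (35.6 ± 17.5), Slc22a13 (30.8 ± 5.57) and Slc22a19 (13.9 ± 8.88). The ranges of the 3 libraries overlapped between each gene and the next in this order, except between Slc22a13 (25.4 to 36.5) and Slc22a19 (6.65 to 23.8). Slc22a18, which is not one of the 9, stood at 408 ± 10.8 CPM per kilobase. In this unit Slc22a7 ran from 9.21 to 197 within Control, the widest range of the family.

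**Figure D1:**
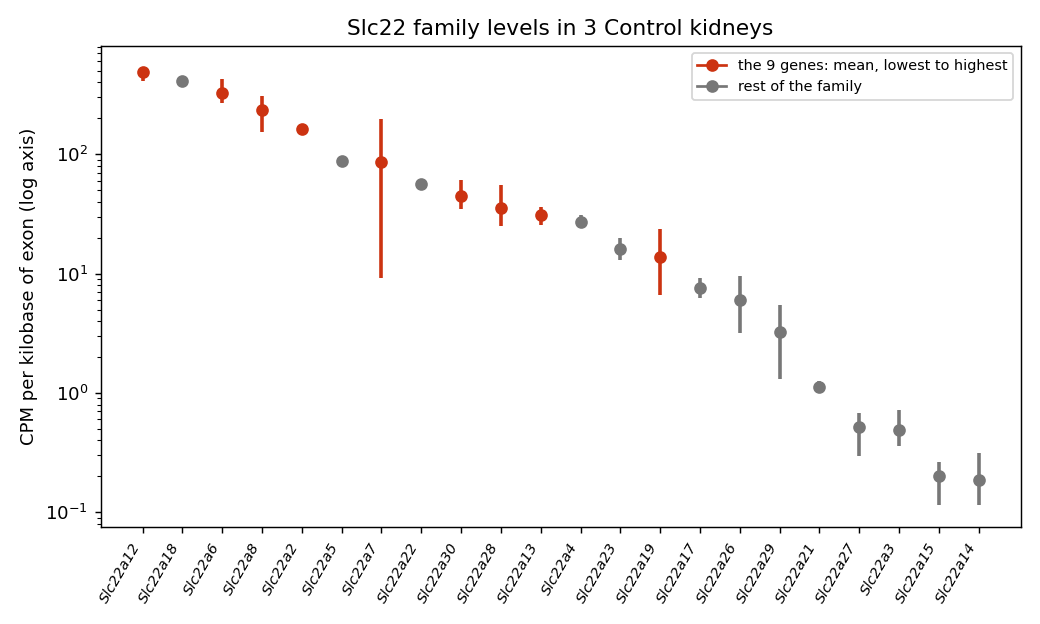
Levels of the Slc22 family in Control kidneys, in CPM per kilobase of exon on a log axis; points are means of 3 libraries, bars run from the lowest to the highest library, and the 9 genes described here are in red. Slc22a12 is highest at 491 and Slc22a7 has the longest bar, from 9.21 to 197, while Slc22a16 and Slc22a20, at 0 counts in all 10 libraries, cannot be shown on a log axis and 1 other family member is left out.

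Organic ion transporter transcripts were lower in the kidneys with APOL1 risk alleles, G1 and G2 averaged, than in Control. Of the 9 genes, 6 fell and 0 rose (edgeR's quasi-likelihood test, Benjamini-Hochberg adjusted p under 0.05 over all 17823 genes), where 18% of all genes tested fell, though Slc22a12 and Slc22a2 of those 6, and Slc22a13 and Slc22a19 of the others, stood above Control when libraries were scaled to proximal tubule markers. The 6 were the anion uptake carriers Slc22a6 and Slc22a8, the urate carrier Slc22a12, the rodent genes Slc22a28 and Slc22a30, and the cation carrier Slc22a2. Slc22a6 and Slc22a8 lay below every Control library in all 4 risk allele libraries, 2 of the 9, where 17.7% of genes tested did so. The median log2 fold change of the 9 was -1.47, against 0.00 over all genes tested. Kidney was measured in bulk, so fewer cells of a type and less RNA per cell cannot be told apart.

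Against wild type (single mutant), 7 of the 9 fell, the same 6 and Slc22a19, where 19.3% of all genes tested fell, and under scaling to proximal tubule markers Slc22a8, Slc22a12, Slc22a13, Slc22a19 and Slc22a2 turned positive. The median of the 9 was -1.31, and 4 of them (Slc22a6, Slc22a8, Slc22a12 and Slc22a2) lay below every wild type (single mutant) library, where 18.4% of genes tested did so. Between wild type (single mutant) and Control none of the 9 was called by edgeR's test, with every adjusted p at 1, and the sample titles described below cross these groups. No gene of the 17823 was called in that comparison (0% fell), 724 had an unadjusted p under 0.05, DESeq2 called 14 genes and limma-voom 0. All 9 genes overlapped between those groups, where 7.81% of genes tested did not, and their log2 differences ran from -0.34 ± 0.29 (SE) for Slc22a8 to 0.80 ± 1.10 for Slc22a7.

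The alleles differed. In G1 the 9 genes summed to 1396 and 1003 CPM and in G2 to 3000 and 2571 CPM, against 3762 to 5639 CPM in the 6 libraries without a risk allele label. In G1 against Control 7 of the 9 fell, where 17.9% of all genes tested fell, and all 9 lay below every Control library, where 32% of genes tested did so. In G2 against Control only Slc22a8 fell, where 8.86% of genes tested fell, and 2 of the 9, Slc22a8 and Slc22a6, lay below every Control library, where 22.6% of genes tested did so. Between the alleles directly, 5 of the 9 were higher in G2 than in G1 and 0 lower, where 3.84% of genes tested were higher, and 8 of the 9 lay above both G1 libraries in both G2 libraries, where 29.2% of genes tested did so. The median difference between G2 and G1 was 1.26 on the log2 scale over the 9 genes, against 0.04 over all genes tested.

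**Figure D2:**
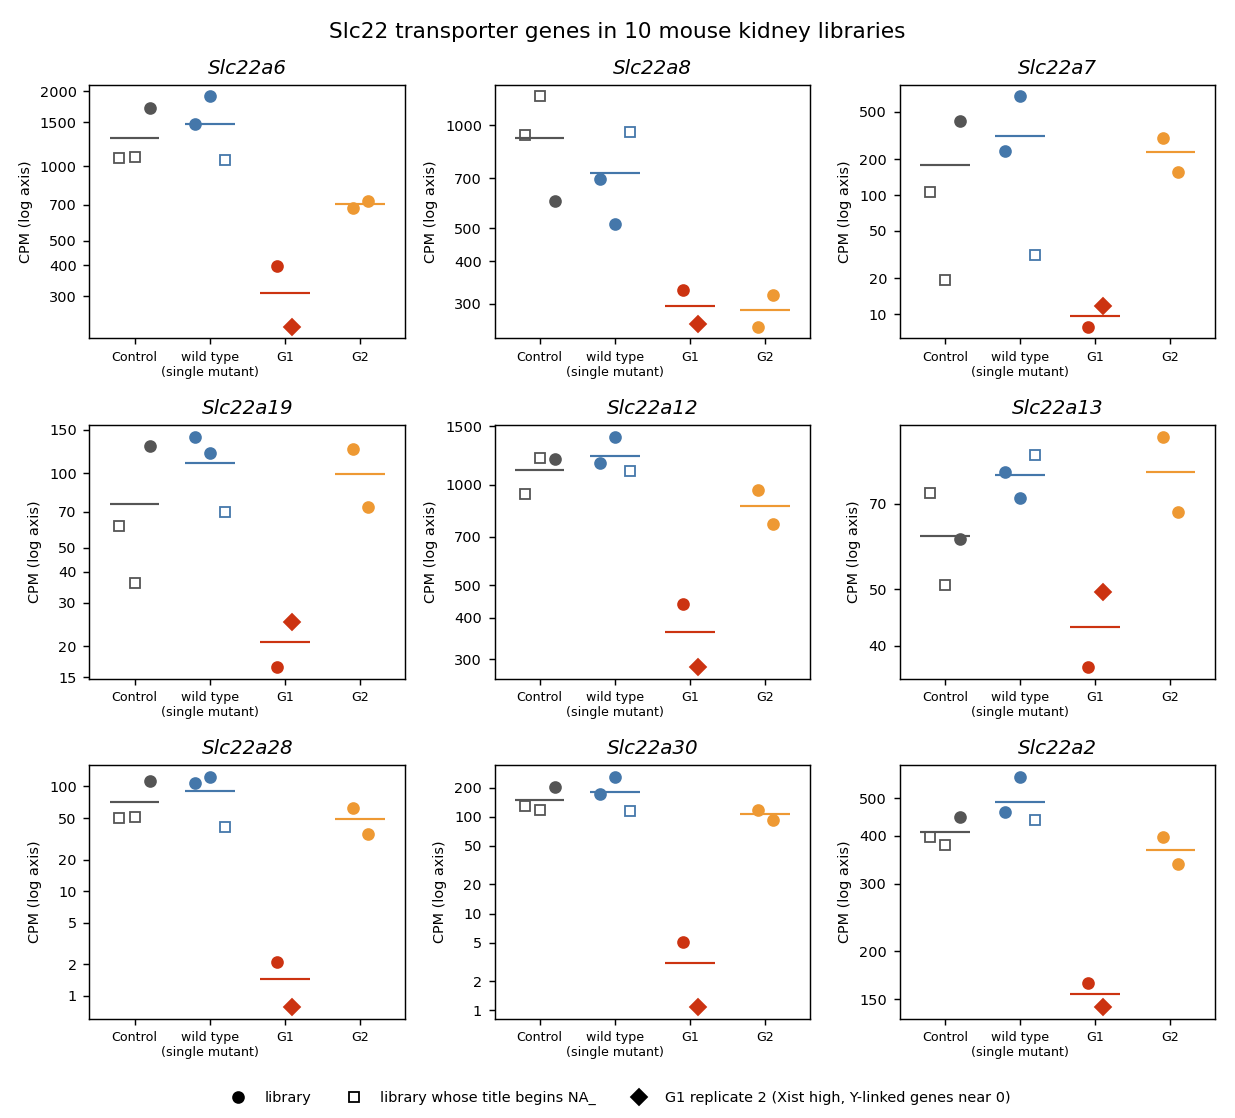
Each panel plots 1 gene in CPM on a log axis for the 10 libraries by group, with horizontal lines at group means; open squares are libraries whose titles begin NA_ and the diamond is G1 replicate 2. The G1 points are the lowest of their panel for 8 genes, by the widest margin for Slc22a28 and Slc22a30, while Slc22a8 is low in all 4 libraries with a risk allele label; CPM are on TMM scaling, and scaling to proximal tubule markers turns the sign of several genes.

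Slc22a6, on chromosome 19 (GRCm38 chr19:8618039-8628299, plus strand), encodes OAT1, the carrier of para-aminohippurate uptake. It stood at 1075, 1085 and 1719 CPM in Control, at 1477, 1908 and 1055 CPM in wild type (single mutant), at 394.8 and 225.6 CPM in G1, and at 679.9 and 723.2 CPM in G2. All 4 libraries with a risk allele label lay below all 6 without one, and G1 lay below G2. Its log2 fold change was -1.47 ± 0.27 (SE) for the risk alleles against Control (edgeR adjusted p = 0.00303) and -2.06 ± 0.35 for G1 alone (adjusted p = 0.00205). For G2 alone it was -0.88 ± 0.33 and was not called (adjusted p = 0.0895), nor was the difference between G2 and G1 of 1.18 ± 0.36 (adjusted p = 0.0829).

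Slc22a8 lies beside it (chr19:8591254-8611835, plus strand) and encodes OAT3, the other main basolateral anion carrier. It stood at 935.2, 1214 and 599.5 CPM in Control and at 697.8, 515.6 and 957.0 CPM in wild type (single mutant). In G1 it stood at 328.4 and 262.7 CPM and in G2 at 257.0 and 317.6 CPM. The risk allele libraries again all lay below the 6 others, but here G1 and G2 overlapped. Slc22a6 and Slc22a8 were the 2 of the 9 genes with this separation, where 14% of genes tested had it. The fall was -1.65 ± 0.27 on the log2 scale for the risk alleles against Control (adjusted p = 0.00169), -1.63 ± 0.34 for G1 (adjusted p = 0.00555) and -1.67 ± 0.34 for G2 (adjusted p = 0.00934). The difference between G2 and G1 was -0.04 ± 0.35 (edgeR adjusted p = 0.959). With 1 G2 library left out at a time, the G2 call was lost without replicate 1 (-1.57, adjusted p = 0.0641) and kept without replicate 2 (-1.84, adjusted p = 0.0351).

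Slc22a7 (chr17:46432183-46438457, minus strand) encodes OAT2 and Slc22a19 (chr19:7673061-7711310, minus strand) encodes Oat5, a rodent anion carrier. Slc22a7 stood at 105.1, 19.34 and 414.9 CPM in Control, at 235.7, 672.2 and 31.41 CPM in wild type (single mutant), at 7.815 and 11.64 CPM in G1 and at 299.3 and 157.3 CPM in G2. Both G1 libraries lay below all 8 others, and the G2 libraries fell inside the range of Control. Relative to its mean, its spread in Control was the largest of the 9 genes (179.8 ± 208 CPM, SD, n = 3), and edgeR's test on TMM scaling called it in no comparison: the log2 fold change was -1.93 ± 1.04 for the risk alleles against Control (adjusted p = 0.174) and -4.21 ± 1.5 for G1 (adjusted p = 0.0539). DESeq2 called it in G1 against Control (-4.2, adjusted p = 0.00611), in the risk alleles against wild type (single mutant) (-2.76, adjusted p = 0.035) and between G2 and G1 (4.51, adjusted p = 0.0197), and without the filter on low counts edgeR called the first 2 of these (adjusted p = 0.0198 and 0.0272).

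Slc22a19 stood at 61.22, 36.11 and 129.3 CPM in Control, at 140.9, 121.0 and 69.74 CPM in wild type (single mutant), at 16.49 and 25.12 CPM in G1 and at 126.0 and 73.05 CPM in G2. It had the same layout as Slc22a7, with G1 lowest and G2 within the range of the libraries without a risk allele label. It fell in G1 against Control by 1.86 ± 0.55 on the log2 scale (log2 fold change -1.86, adjusted p = 0.0265) and in the risk alleles against wild type (single mutant), with -1.28 ± 0.42 (adjusted p = 0.039). The second call was lost when any of 5 libraries was left out (G1 replicate 1, G1 replicate 2, G2 replicate 2, and wild type (single mutant) replicates 1 and 2), with log2 fold changes from -1.53 to -1.07 over the 7 libraries left out in turn. The G1 call was lost without G1 replicate 1, G1 replicate 2 or Control replicate 3, over a range of -2.20 to -1.23. G2 minus G1 was 2.26 ± 0.58 and was not called (adjusted p = 0.0534).

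Slc22a12 (chr19:6535845-6543032, minus strand) encodes URAT1. It stood at 936.2, 1201 and 1198 CPM in Control, at 1162, 1397 and 1098 CPM in wild type (single mutant), at 439.1 and 284.1 CPM in G1 and at 968.7 and 765.7 CPM in G2. G1 lay below all other libraries, while G2 overlapped Control. It fell by 0.99 ± 0.18 for the risk alleles against Control (log2 fold change -0.99, adjusted p = 0.00304) and by 1.62 ± 0.23 for G1 (-1.62, adjusted p = 0.000868). In G2 the log2 fold change was -0.36 ± 0.22 (adjusted p = 0.274), and G2 stood above G1 by 1.26 ± 0.24 (adjusted p = 0.0231).

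Slc22a13 (chr9:119192974-119209098, minus strand) encodes OAT10, a carrier of urate and nicotinate. It stood at 73.01, 50.74 and 60.99 CPM in Control, at 79.29, 71.53 and 84.72 CPM in wild type (single mutant), at 36.79 and 49.36 CPM in G1 and at 91.28 and 67.77 CPM in G2. The G1 libraries were again the lowest of the 10, G1 replicate 2 by a small margin, and G2 held the highest value. Neither allele was called against Control (G1 -0.52 ± 0.20, adjusted p = 0.0683, and G2 0.37 ± 0.19, adjusted p = 0.206), and the difference between them was called at 0.88 ± 0.21 (adjusted p = 0.0438). That call was lost with DESeq2 size factors (0.84, adjusted p = 0.0516), library totals (0.82, adjusted p = 0.0595), the geometric mean of proximal tubule markers (0.31, adjusted p = 0.444), only G1 and G2 in the fit (0.87, adjusted p = 0.0953) and whichever G1 or G2 library was left out, and the sign turned with summed markers (-0.75, adjusted p = 0.09).

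Slc22a28 (chr19:8062209-8131982, minus strand) and Slc22a30 (chr19:8335371-8405111, minus strand) lie on either side of Slc22a29 in a cluster of rodent family members and had the largest log2 fold changes of the 9 in G1. Slc22a28 stood at 50.53, 51.68 and 111.7 CPM in Control, at 107.5, 124.0 and 40.64 CPM in wild type (single mutant), at 2.124 and 0.7811 CPM in G1 (81 and 31 counts) and at 62.44 and 35.28 CPM in G2. Slc22a30 stood at 129.0, 118.0 and 204.4 CPM in Control, at 170.9, 259.5 and 115.5 CPM in wild type (single mutant), at 5.140 and 1.083 CPM in G1 (196 and 43 counts) and at 118.0 and 93.53 CPM in G2. For both genes the G1 libraries lay far below all others, and G2 overlapped Control for Slc22a28 and only touched its lowest value for Slc22a30.

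In G1 against Control, Slc22a28 fell 49.1-fold (log2 fold change -5.62 ± 0.75, edgeR adjusted p = 0.00063) and Slc22a30 fell 48.4-fold (-5.60 ± 0.69, adjusted p = 0.000441). In G2 against Control the log2 fold changes were -0.55 ± 0.56 for Slc22a28 (adjusted p = 0.525) and -0.51 ± 0.53 for Slc22a30 (adjusted p = 0.531), and neither was called. G2 stood above G1 by 33.6-fold for Slc22a28 (5.07 ± 0.75, adjusted p = 0.0122) and by 34-fold for Slc22a30 (5.09 ± 0.69, adjusted p = 0.0106). Under scaling to proximal tubule markers the fall of both in G1 remained called, at -3.44 and -3.50 with the summed counts of those markers and at -4.04 and -4.06 with their geometric mean.

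These are near copies, which limits how far their values are independent. Their coding sequences have 1659 bases each and are 98.8% identical, and 497 of the 1560 windows of 100 bases, the read length, are identical. A window differs at 4 bases at most, and 1 such window, coding bases 630 to 729 of the GENCODE M21 transcripts, is shown to let the copies be compared, with the differing bases in capitals.
Slc22a28: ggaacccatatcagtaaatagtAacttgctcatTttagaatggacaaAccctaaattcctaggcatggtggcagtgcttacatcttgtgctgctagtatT
Slc22a30: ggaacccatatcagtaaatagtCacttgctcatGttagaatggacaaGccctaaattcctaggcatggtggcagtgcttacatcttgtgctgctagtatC
Of all 100-base words in the transcript with the longest coding sequence of each gene, 37% of those of Slc22a28 occur also in Slc22a27, Slc22a29 or Slc22a30, and 32.9% of those of Slc22a30 occur also in Slc22a28 or Slc22a29. How the authors' counting treated reads that fit several copies is not given in the sources used here, so the split of counts between the 2 genes is uncertain. The likeness of their values was not tested apart from shared reads.

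The stretches before their transcription starts are near copies as well. RefSeq's promoter table (GRCm38.p6) gives the 250 bases before Slc22a28 at chr19:8131983-8132232 and those before Slc22a30 at chr19:8405106-8405355, both on the minus strand. They pair over 244 bases, of which 238 are identical and 6, in capitals, differ.
Slc22a28: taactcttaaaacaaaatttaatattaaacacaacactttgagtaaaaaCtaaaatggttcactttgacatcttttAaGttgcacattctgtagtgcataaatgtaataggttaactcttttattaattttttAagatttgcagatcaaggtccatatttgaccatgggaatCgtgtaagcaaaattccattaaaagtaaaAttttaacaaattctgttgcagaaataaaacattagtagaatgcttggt
Slc22a30: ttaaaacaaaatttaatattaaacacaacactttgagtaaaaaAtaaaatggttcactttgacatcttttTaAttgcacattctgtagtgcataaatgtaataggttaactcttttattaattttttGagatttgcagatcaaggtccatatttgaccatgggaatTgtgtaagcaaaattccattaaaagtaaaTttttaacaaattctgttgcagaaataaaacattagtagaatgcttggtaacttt
The next most alike pair of member promoters, Slc22a19 and Slc22a30, was 68.8% identical over 234 paired bases. Slc22a19, with a coding sequence 75.3% identical to that of either gene, shares 0.158% of its 100-base words with Slc22a27 and none with the pair. It too was lowest in G1 and had a level in G2 within the range of the libraries without a risk allele label.

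Among the other members, shared sequence was found for Slc22a12, Slc22a13 and Slc22a2. For Slc22a12, 27.4% of the 100-base words lie also in Nrxn2, a gene on the opposite strand that spans it and stood at 29.65 ± 20 CPM in Control (SD, n = 3). For Slc22a13, 21.8% lie also in the pseudogene Slc22a13b-ps, at 5.766 ± 2.65 CPM in Control. For Slc22a2, 2.43% are shared with another gene. The Control means of Nrxn2 and Slc22a13b-ps were far below those of Slc22a12 and Slc22a13 (1112 and 61.58 CPM). Slc22a6, Slc22a8 and Slc22a7 share no such word with another annotated gene.

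Slc22a2 (chr17:12584132-12628488, plus strand) encodes OCT2, the basolateral carrier of cations such as creatinine and metformin. It stood at 397.3, 377.8 and 448.1 CPM in Control, at 461.8, 569.5 and 438.9 CPM in wild type (single mutant), at 165.6 and 143.0 CPM in G1 and at 396.9 and 337.9 CPM in G2. Both G1 libraries lay below all 8 others, and G2 overlapped Control. Its log2 fold change was -0.78 ± 0.12 for the risk alleles against Control (adjusted p = 0.00161), -1.40 ± 0.16 for G1 (adjusted p = 0.000268) and -0.15 ± 0.15 for G2 (adjusted p = 0.511). G2 stood above G1 by 1.25 ± 0.17 (adjusted p = 0.0106).

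**Figure D3:**
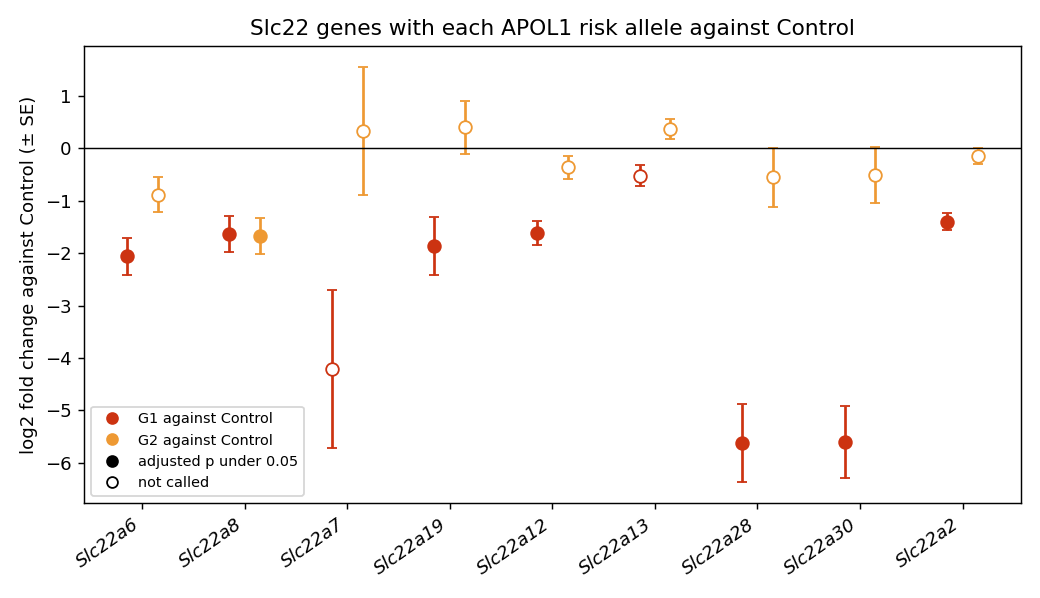
Log2 fold changes of the 9 genes against Control for G1 (red) and G2 (orange), with SE as error bars; filled points have an adjusted p under 0.05 and open points were not called. G1 points run from -0.52 to -5.62 and G2 points from 0.40 to -1.67, both against the same 3 Control libraries and on TMM scaling. Scaled to the summed proximal tubule markers, Slc22a6, Slc22a8, Slc22a19, Slc22a12, Slc22a13 and Slc22a2 turn positive in G1, and Slc22a12, Slc22a28, Slc22a30 and Slc22a2 in G2. With the geometric mean of those markers Slc22a13, Slc22a2 and, barely, Slc22a8 turn positive in G1, and Slc22a6, Slc22a12, Slc22a28, Slc22a30 and Slc22a2 in G2.

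Since each allele has 2 libraries, every G1 and G2 value rests on few. Without G1 replicate 2, the library with high Xist, 5 of the 9 remained called in G1 against Control: Slc22a6 (-1.68, adjusted p = 0.0261), Slc22a12 (-1.31, 0.0119), Slc22a28 (-5.04, 0.0105), Slc22a30 (-4.84, 0.00239) and Slc22a2 (-1.27, 0.00737). Slc22a8 (-1.45, adjusted p = 0.0594) and Slc22a19 (-2.17, adjusted p = 0.0888) kept their sign and lost the call. Between G2 and G1, none of the 9 was called without that library, with differences of 4.31 for Slc22a30 (adjusted p = 0.0554), 4.47 for Slc22a28 (0.0926), 1.10 for Slc22a2 (0.0911), 0.93 for Slc22a12 (0.147) and 1.06 for Slc22a13 (0.122). Without G1 replicate 1, Slc22a30 alone was called (6.60, adjusted p = 0.0117), and without either G2 replicate Slc22a28, Slc22a30 and Slc22a2 were called. In each of these fits an allele is left with 1 library, which is assumed to vary like the other groups. Fewer of all genes tested were also called in each of them than with all 10 libraries. For the risk alleles averaged against Control, 6 of the 9 were called whichever of the 7 libraries was left out.

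The 5 genes called between the alleles were set beside the other lists. Of the rest of the Slc22 family, 3 of 14 tested genes were higher in G2 than in G1, Slc22a18 (1.03 ± 0.22, adjusted p = 0.0326), Slc22a22 (2.46 ± 0.28, 0.00609) and Slc22a26 (2.89 ± 0.58, 0.0263), and the median of the 14 was 0.06. Of 30 proximal tubule markers, 8 were higher in G2, 4 were lower and the median was 0.40. Over all genes tested, 3.84% were higher in G2 and 2.88% lower. Of 10 tubular injury markers, 4 were lower in G2, where 2.88% of genes tested were lower, and their median was -0.96. Their summed level was 20960 and 30110 CPM in G1, 8755 and 5010 CPM in G2, and 848 to 1435 CPM in the 6 other libraries. In the risk alleles against Control 9 of the 10 rose, where 19.3% of all genes tested rose, with a median of 4.31. The part of injury or of proximal tubule content in the difference between the alleles was not tested. No test compared the lists with each other.

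**Figure D4:**
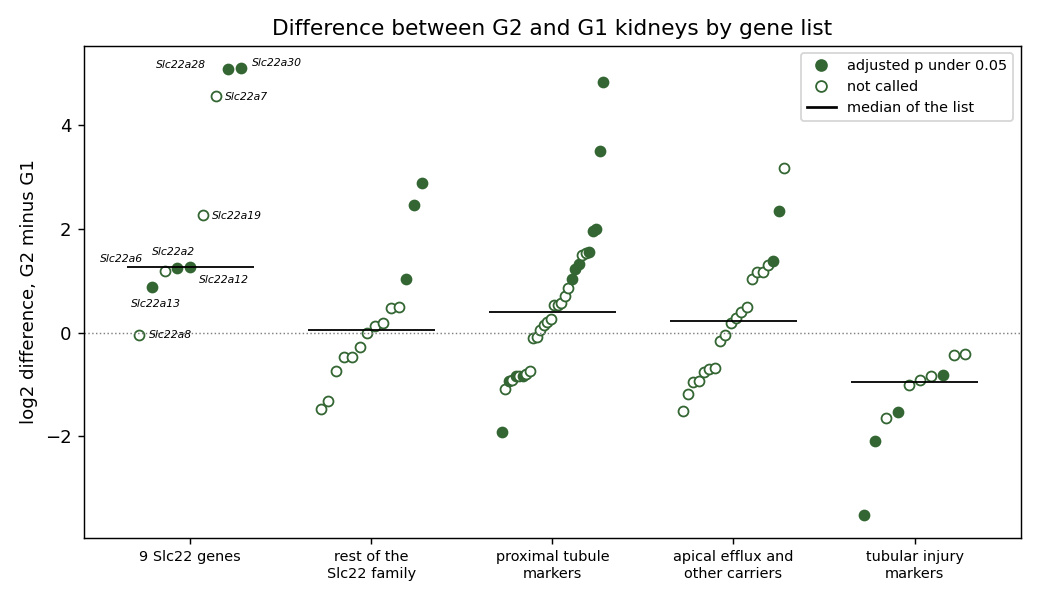
Log2 difference between G2 and G1 for each tested gene of 5 lists, 1 point a gene in order of size within its list; filled points have an adjusted p under 0.05 and horizontal lines are list medians. The 9 genes have a median of 1.26 and their highest points are Slc22a30 at 5.09 and Slc22a28 at 5.07, against a median of 0.06 for the rest of the family, all on TMM scaling. Scaled to the summed proximal tubule markers, Slc22a6, Slc22a12, Slc22a13 and Slc22a2 turn negative, and with the geometric mean of those markers they stay positive.

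Within the 6 libraries without a risk allele label, the 9 genes varied with the sample titles. The titles of Control replicates 1 and 2 and of wild type (single mutant) replicate 3 begin with NA_, and no library with a risk allele label has such a title. What the title stands for is not stated. Of the 9 genes, 7 did not overlap between these 3 libraries and the other 3, where 25.3% of genes tested did not. Slc22a6, Slc22a7, Slc22a19, Slc22a28, Slc22a30 and Slc22a2 were lower in the NA_ libraries, the others standing 1.59, 8.49, 2.34, 2.4, 1.75 and 1.22 times higher on average. Slc22a8 went the other way, at 935.2 to 1214 CPM in the NA_ libraries and 515.6 to 697.8 CPM in the others. Slc22a12 and Slc22a13 overlapped. Within each set of titles the wild type (single mutant) libraries lay above the Control libraries for Slc22a2 and Slc22a13. Each set has only 3 libraries, and the share of all genes with this layout was not computed. Neither gene was called between those genotype labels.

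Since 2 of the 3 Control libraries have such a title, the comparisons with Control were repeated without the NA_ libraries, which leaves 1 Control and 2 wild type (single mutant) libraries. The lone Control library, replicate 3, is assumed to vary like the other groups, and it held the highest Control value of both Slc22a7 and Slc22a19. Against it the risk alleles stood at -3.14 for Slc22a7 (adjusted p = 0.00896) and -1.51 for Slc22a19 (adjusted p = 0.0173), both past the threshold in that fit. In G1 against Control, Slc22a7 was also called, at -5.41 (adjusted p = 0.00338). In G2 against Control, Slc22a8 remained the only call (-1.06, adjusted p = 0.0417), and Slc22a7 and Slc22a19 changed from 0.34 and 0.40 to -0.86 and -0.38, neither called.

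A term for the title was also fitted with all 10 libraries kept, an alternative added after the values were seen, in which G1 and G2 count as libraries without NA_. Wild type (single mutant) against Control still had none of the 9 called, with log2 differences from -0.42 ± 0.71 for Slc22a7 to 0.38 ± 0.19 for Slc22a13. In the risk alleles against Control 8 of the 9 fell, where 3059 of the 17823 genes tested fell in that fit. Slc22a7 (-3.53 ± 0.73, edgeR adjusted p = 0.00703) and Slc22a19 (-1.35 ± 0.30, adjusted p = 0.00997) were among the 8. In G2 against Control 3 fell, where 1920 of all genes tested fell. The 3 were Slc22a8 (-1.12 ± 0.23, adjusted p = 0.00981), Slc22a6 (-1.30 ± 0.26, adjusted p = 0.0102) and Slc22a28 (-1.32 ± 0.39, adjusted p = 0.0403). Between G2 and G1, 8 were higher in G2, all but Slc22a8, where 1139 of all genes tested were higher. Without the term 684 of all genes tested were higher.

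Proximal tubule transcripts fell as well. Of 30 proximal tubule markers outside the Slc22 family, 26 fell and 1 rose in the risk alleles against Control. Over all genes tested, 18% fell and 19.3% rose. The median of the markers was -1.42, against -1.47 for the 9 genes. The summed level of the markers was 17360 and 12100 CPM in G1, 53950 and 34210 CPM in G2 and 57290 to 91830 CPM in the 6 others. Kap, named after its values were seen, stood at 1073 to 2916 CPM in G1, 14160 to 30860 CPM in G2 and 15490 to 41050 CPM in the others. The endocytic receptor gene Lrp2 fell by 1.53 ± 0.11 (log2 fold change -1.53, adjusted p = 7.05e-05) and the phosphate carrier gene Slc34a1 by 1.84 ± 0.14 (-1.84, adjusted p = 7.94e-05). In G1 24 of the 30 fell (median -1.72) and in G2 22 fell (median -1.19), whereas 7 and 1 of the 9 Slc22 genes did. Over all genes tested, 17.9% fell in G1 and 8.86% in G2. Both alleles were compared with the same Control libraries.

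When library sizes were set by the geometric mean of these 30 markers, an alternative added after the values were seen, the 9 genes divided into those lower and those higher than that reference in the risk alleles against Control. Slc22a28 (-1.74 ± 0.41, adjusted p = 0.00243) and Slc22a30 (-1.73 ± 0.37, adjusted p = 0.00126) were lower. Slc22a12 (0.38, adjusted p = 0.0266), Slc22a13 (1.31, adjusted p = 0.000315) and Slc22a2 (0.60, adjusted p = 0.00219) were higher. Slc22a6 (-0.11), Slc22a8 (-0.27), Slc22a7 (-0.54) and Slc22a19 (0.67) were not called. That scaling moved the median of all genes by 1.38 on the log2 scale, and the summed counts of the markers moved it by 1.43, so these values describe the carriers against proximal tubule transcripts and not against the kidney as a whole.

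Carriers that work with the 9 genes were taken as fixed lists. All 4 genes of the dicarboxylate and monocarboxylate list fell in the risk alleles against Control, where 18% of all genes tested fell, with a median of -1.41. Among them Slc13a3, which supplies the dicarboxylate that OAT1 and OAT3 exchange, fell by 1.44 ± 0.13 (-1.44, adjusted p = 0.000134), from 1363 ± 139 CPM in Control (SD, n = 3) to 462.6 ± 79.7 CPM in G1 and 548.4 ± 54.7 CPM in G2 (n = 2 each). Its difference between G2 and G1 was 0.25 ± 0.18 (adjusted p = 0.437). Another gene of this list, Slc5a12, is also counted among the proximal tubule markers, so the lists are not separate.

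Of 20 genes listed as apical efflux and other organic ion carriers, 7 fell and 0 rose, with a median of -0.48, where 18% of all genes tested fell. The list is not limited to apical carriers. The urate and phosphate cotransporter relatives Slc17a3 (-1.30 ± 0.26, adjusted p = 0.00444) and Slc17a1 (-0.93 ± 0.17, 0.00339), the cation exporter Slc47a1, MATE1 (-0.81 ± 0.13, 0.00146), and the urate exporter Abcg2 (-0.75 ± 0.14, 0.00299) fell. The anion efflux pumps Abcc2 (-0.37 ± 0.20, adjusted p = 0.17) and Abcc4 (0.33 ± 0.46, adjusted p = 0.61) and the urate carrier Slc2a9 (-0.30 ± 0.14, adjusted p = 0.112) were not called. Slc17a3 was higher in G2 than in G1 (1.38 ± 0.34, adjusted p = 0.0476).

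Of 14 scaffold and regulator genes, 8 fell and 0 rose, with a median of -0.64, where 18% of all genes tested fell. Pdzk1, the apical scaffold that binds URAT1, fell by 1.21 ± 0.19 (-1.21, adjusted p = 0.0016). The transcription factor gene Hnf4a fell (-1.11 ± 0.15, adjusted p = 0.000601). Between G2 and G1, Hnf4a was not called (-0.06 ± 0.19, adjusted p = 0.881).

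Most of the remaining family members fell too. Of the 14 tested, 10 fell and 1 rose in the risk alleles against Control, where 18% of all genes tested fell and 19.3% rose. The median of the 14 was -1.0. In G1 and in G2 alone 7 fell and 1 rose, where 17.9% and 8.86% of all genes tested fell. These values are on TMM scaling. The carnitine transporter gene Slc22a5 (OCTN2, -1.19 ± 0.14, adjusted p = 0.000334) and its relative Slc22a4 (-1.06 ± 0.14, 0.000606) fell. Slc22a22, a prostaglandin carrier gene, had the largest fall of the 14, at -2.4 ± 0.2 (adjusted p = 9.71e-05). The gene that rose, Slc22a15, went from 2.892 ± 1.12 CPM in Control (SD, n = 3) to 10.42 ± 0.687 CPM in G1 and 7.55 ± 2.64 CPM in G2 (n = 2 each), a log2 fold change of 1.62 ± 0.33 (adjusted p = 0.00567).

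Slc22a27 and Slc22a29, whose coding sequences are 91.5% and 92.1% identical to that of Slc22a28, had other layouts over the libraries. In CPM, Slc22a29 stood at 6.871, 12.35 and 2.984 in Control, at 2.177 and 5.216 in G1 and at 1.137 and 1.495 in G2, so that here G2 was the lower allele. Its log2 fold change was -2.48 ± 0.76 in G2 (adjusted p = 0.046) and -1.0 ± 0.69 in G1 (adjusted p = 0.286), and the difference between the alleles was not called (-1.48 ± 0.78, adjusted p = 0.28). Slc22a27 was at or under 1.449 CPM in every library. Slc22a26, 74% identical to Slc22a28, did have the layout of the pair, with 1.547 and 1.335 CPM in G1, 13.25 and 8.172 CPM in G2 and 9.344 to 28.54 CPM elsewhere.

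Over the 10 libraries the members grouped by pattern. Pearson's r of log2(CPM + 0.5) is given as a description across all 4 groups, which share the differences between groups, and carries no p. Slc22a28 and Slc22a30 were most alike (r = 0.99), and these 2, Slc22a12 and Slc22a2 had an r of 0.97 to 0.99 with each other. Slc22a6 was nearest to Slc22a12 (0.956), and Slc22a7 to Slc22a19 (0.936). For Slc22a8 the nearest member was Slc22a6 at 0.644, and its r with Slc22a7 was 0.00.

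Among 9795 tested genes outside the family with a mean of at least 10 CPM, the closest patterns were those of Acot12 (0.994) and Wwp1 (0.992) for Slc22a6, Ublcp1 (0.983) and Slc25a15 (0.98) for Slc22a8, and Cd55 (0.967) and Gm6300 (0.965) for Slc22a7. They were Rnf24 (0.965) and Gm853 (0.949) for Slc22a19, Erc2 and D630029K05Rik (0.988 each) for Slc22a12, and Ak1 (0.942) and Trmt1l (0.896) for Slc22a13. For the rodent pair they were D630029K05Rik (0.987) and Them7 (0.986) with Slc22a28, and Ces1f (0.991) and Inmt (0.986) with Slc22a30. Slc22a2 was closest to Cckar (0.99) and Chpt1 (0.987).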

How the data were processed

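The deposited values are whole-number gene counts, 1 table per library. Per the labels' protocols, poly(A) RNA was read single-end at 100 bases. Per the submitters' processing notes the authors' tools included STAR 2.4.1d and HTSeq 0.6.1, with CASAVA 1.8.2, Trim Galore and FastQC upstream, on build GRCm38; which strand setting and annotation release were used is not given in the sources used here. Symbols, positions and transcripts were taken from GENCODE M21, which matched 46005 of 46517 gene IDs. No pair of libraries agreed within counting noise (lowest chi-square per gene 26.9).

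Genes passed edgeR's filterByExpr with a minimum count of 10. One edgeR 4.0.16 quasi-likelihood model on TMM-scaled counts was fitted to all 10 libraries by group in R 4.3.3, with Benjamini-Hochberg adjustment over 17823 genes, a threshold of 0.05 and 6 comparisons. The fit was tested on simulated data. Every adjusted p in the text comes from it or, where stated, from an alternative: DESeq2 1.42.0, limma-voom 3.58.1, 4 other scalings, no filter, only the groups compared, a term for the title, and libraries left out. Sequences came from RefSeq's promoter table (GRCm38.p6) and GENCODE, and were aligned with Biopython 1.88.

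The 9 genes and the lists (the rest of the family, exchange partners, apical efflux and other carriers, scaffolds and regulators, and markers of proximal tubule, distal nephron, podocytes, injury, immune cells, fibroblasts, liver, adrenal and sex chromosomes) were chosen with earlier results of these data known. Named were all 9, tested family members, up to 4 genes of each list by p, and a set of regulators, partners and markers given whatever their result. The nearest 2 genes by correlation were named for each of the 9. Some genes of these lists are not reported here by name, though the counts over the lists include them.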

Additional observations from a re-analysis of the deposited data

Results flagged for a closer look

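In 5 of the 9 genes the effect of the G2 allele differed from that of G1 by a direct edgeR test of G2 against G1. Over all genes tested, 3.84% were higher in G2 and 2.88% lower. The log2 differences were 5.09 for Slc22a30 (adjusted p = 0.0106), 5.07 for Slc22a28 (adjusted p = 0.0122), 1.26 for Slc22a12 (adjusted p = 0.0231), 1.25 for Slc22a2 (adjusted p = 0.0106) and 0.88 for Slc22a13 (adjusted p = 0.0438), higher in both G2 libraries than in both G1 libraries for each. With any 1 G1 or G2 library left out, which leaves an allele with 1 library, all 5 differences kept their sign. They ran from 4.31 to 6.6 for Slc22a30, 4.47 to 5.95 for Slc22a28 and 0.93 to 1.61 for Slc22a12. For Slc22a2 they ran from 1.06 to 1.36 and for Slc22a13 from 0.58 to 1.06. Each of the 5 lost its call in some of these fits, among them the fit without G1 replicate 2. That library held 360 CPM of Xist. Fewer of all genes tested were called in each of these fits than with all 10 libraries. All these values are on TMM scaling. Scaled to the summed proximal tubule markers, the differences of Slc22a12, Slc22a13 and Slc22a2 turned negative, and with the geometric mean of those markers they stayed positive. No outlier test of single libraries was run in groups of 2 or 3.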

How the results depend on the processing

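Over the alternatives, the fold changes of the 9 genes kept direction and call in 687 cases, gained a call in 39, lost it in 40 and changed sign in 62. Scaling by library totals gave 0.20 for Slc22a13 (risk alleles against Control) and 0.10 for Slc22a2 (G2 against Control). Scaling by summed proximal tubule markers turned, in risk alleles against Control, Slc22a19 to 0.79, Slc22a12 to 0.40, Slc22a13 to 1.36 and Slc22a2 to 0.65; against wild type (single mutant), Slc22a8 to 0.19, Slc22a19 to 0.31, Slc22a12 to 0.41, Slc22a13 to 1.11 and Slc22a2 to 0.52; in wild type (single mutant) against Control, Slc22a12 to -0.01. In G1 against Control it gave 0.12 for Slc22a6, 0.50 for Slc22a8, 0.50 for Slc22a19, 0.54 for Slc22a12, 1.74 for Slc22a13 and 0.80 for Slc22a2, and in G2 against Control 0.26 for Slc22a12, 0.09 for Slc22a28, 0.16 for Slc22a30 and 0.49 for Slc22a2. Between G2 and G1 it gave -0.29 for Slc22a6, -0.27 for Slc22a12, -0.75 for Slc22a13 and -0.31 for Slc22a2. Scaling by the geometric mean of those markers, added after seeing the data, gave in risk alleles against Control 0.67 for Slc22a19, 0.38 for Slc22a12, 1.31 for Slc22a13 and 0.60 for Slc22a2, and against wild type (single mutant) 0.12 for Slc22a8, 0.21 for Slc22a19, 0.31 for Slc22a12, 1.04 for Slc22a13 and 0.41 for Slc22a2. In G1 against Control it gave 0.00 for Slc22a8, 1.16 for Slc22a13 and 0.24 for Slc22a2, and in G2 against Control 0.24 for Slc22a6, 0.76 for Slc22a12, 0.57 for Slc22a28, 0.60 for Slc22a30 and 0.96 for Slc22a2. Without the NA_ libraries, also added after seeing the data, G2 against Control gave -0.86 for Slc22a7 and -0.38 for Slc22a19. With a term for the title it gave -1.25 and -0.22, and wild type (single mutant) against Control gave -0.03 for Slc22a6, -0.42 for Slc22a7, -0.14 for Slc22a28 and -0.01 for Slc22a30.

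Counts of the 9 called moved as follows. In risk alleles against Control, 6 that fell became 2 that fell and 3 that rose under either marker scaling, and against wild type (single mutant) 7 that fell became 4, of which 2 fell and 2 rose. In G1 against Control, 7 that fell became 4 with summed markers (2 fell, 2 rose) and 3 with their geometric mean (2 fell, 1 rose). In G2 against Control, 1 that fell became 2 with library totals (1 fell, 1 rose), 0 with summed markers, 4 with the geometric mean (all rose), 2 with DESeq2 and 3 with the title term (all fell). Between G2 and G1, 5 higher in G2 became 8 with DESeq2 or the title term, 4 with DESeq2 size factors or library totals, and 4 with summed markers (1 fell, 3 rose). With each library left out in turn the counts ran from 6 to 6 (risk alleles against Control), 6 to 8 (against wild type (single mutant)), 5 to 9 (G1 against Control), 0 to 1 (G2 against Control), 0 to 3 (G2 against G1) and 0 to 0 (wild type (single mutant) against Control). Signs changed for Slc22a13 in risk alleles against Control (-0.20 to 0.07), for Slc22a8 between G2 and G1 (-0.25 to 0.12), for Slc22a7 (-0.24 to 1.87) and Slc22a19 (-0.09 to 1.03) in G2 against Control, and for Slc22a6 (-0.03 to 0.46), Slc22a7 (-0.43 to 2.33) and Slc22a30 (-0.07 to 0.56) in wild type (single mutant) against Control. The cause was not tested.

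Over all genes, 6653 were called in risk alleles against Control, 15427 with summed markers, 15915 with their geometric mean and 4216 without the NA_ libraries. Library totals moved the median by 0.27 and the split from 3441 rose and 3212 fell to 6036 and 1601. Between G2 and G1, 1198 genes became 2499 with DESeq2, 1988 with the title term, 799 with only those groups fitted, 13040 with summed markers and 5392 with the geometric mean. In G2 against Control, 3843 became 2510 with only those groups fitted, 14486 with the geometric mean and 2235 without the NA_ libraries. Against wild type (single mutant), 7120 became 16166 with summed markers and 16251 with the geometric mean, and in G1 against Control 6656 became 17043 and 15618. With single libraries left out, 22 to 778 genes were called between G2 and G1, 3397 to 6079 in G1 against Control and 1970 to 3225 in G2 against Control. No paired analysis was possible because the labels give no replicate numbers shared between groups; the title was fitted as a term instead. The lowest count of the 9 genes was 31, for Slc22a28 in G1 replicate 2, and the part of depth in these results was not tested.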

Other observations

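Other cell types were followed by their markers in the risk alleles against Control (edgeR's test), where 19.3% of all genes tested rose and 18% fell. Of 7 immune cell markers tested, 6 rose (median 1.53), with a summed level of 152.2 to 222.7 CPM in the 4 risk allele libraries and 82.36 to 96.17 CPM in the 6 others. Of 5 fibroblast markers, 3 rose (median 1.13), from 236.5 to 307.2 CPM in the 6 others to 474.3 to 1346 CPM. Of 11 markers of the thick ascending limb, distal tubule and collecting duct, 6 fell (median -0.65), and of 6 podocyte markers none was called (median 0.06). Of 9 liver markers 1 rose and 1 fell, the 1 adrenal marker tested was not called (-0.30), and of 5 sex chromosome transcripts none was called. The part of these cell types in the values of the Slc22 genes was not tested.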
